A study of Rattus norvegicus with 8 samples.

Results

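The genes described here are 37 integrin, laminin and focal adhesion genes of the rat, chosen by name: integrin subunits, laminin chains, and the adhesion machinery that links them to the actin skeleton. Of these, 34 had a probe set annotated with their symbol alone, among 18166 genes measured in all. They comprised 13 integrin subunits, 8 laminin chains and 13 genes of the adhesion machinery. Itgav, Itgb3 and Lamb1 were not analysed here. They were measured in alveolar type II (ATII) cells, which line the lung's air sacs and make surfactant, freshly isolated from 4 male Sprague Dawley rats. Each rat gave a well transduced with AdGFP, an adenovirus for green fluorescent protein, and a well transduced with AdHIF1a, an adenovirus for a constitutively active mutant of the oxygen-regulated transcription factor subunit HIF1a. Cells in both groups were held with virus for 3 h, in medium containing 2% fetal bovine serum and at a multiplicity of infection of 20. Both groups were then plated on 80% rat tail collagen and 20% Matrigel with 5% rat serum, and total RNA was taken 24 h later. Both groups thus share the adenovirus and the matrix, and no well without virus is analysed here. The labels do not state the ages of the rats.

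Integrins are receptors made of an alpha and a beta chain that bind matrix proteins outside the cell and, through talin, vinculin, paxillin and alpha-actinin, the actin filaments inside it. Laminins are heterotrimers of an alpha, a beta and a gamma chain and are the main adhesive proteins of the basement membrane on which alveolar epithelium rests. Epithelial cells depend on both when they attach, spread and migrate. Collagen and Matrigel, which is rich in laminin, supplied ligands for integrins in every well.

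Signals are log2 values of Affymetrix arrays, and a difference is AdHIF1a minus AdGFP within rats, ± the standard error (SE) of a paired limma fit over all 18166 genes. A gene was called, and is said to have risen or fallen, when its p-value, adjusted by Benjamini and Hochberg's method over all genes, was under 0.05. Probe sets bind with different strength, so levels are compared between wells and not between genes. Detection calls were not used here. A gene whose mean signal over the 8 arrays lay below the median of all probe sets, which rounds to 5.09, is called dim. The labels could be checked against 10 measured targets of HIF, all of which were higher with AdHIF1a (median difference 1.45). The probe set of Hif1a itself was lower (-0.48 ± 0.08) and does not check the labels, since the labels do not name the species of the transgene. Of 10 measured ATII markers 0 were dim, and 6 were lower and 3 higher with AdHIF1a, or 90% called, beside 20.2% of all genes. Their mean signal ran from 10.18 to 10.62 in the AdGFP wells and from 9.92 to 10.39 in the AdHIF1a wells. Scgb1a1, the secretoglobin of club cells, was also bright in both groups (12.65 and 12.68). The other measured basal and airway markers were not: Scgb3a2 (3.72 and 3.88) and Tubb3 were dim, and Krt14 gave 5.16 and 5.17.

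Among the 34 adhesion genes, 4 rose and 12 fell with AdHIF1a, and 18 did not pass the test. The background is 8.68% of all genes higher and 11.5% lower, or 20.2% in either direction, against 47.1% of the adhesion genes. The adhesion genes were chosen with earlier results of these data known. The comparison of shares is therefore a description and no test of whether adhesion genes change more than others. The 4 that rose were all integrins (Itga5, Itga1, Itga2 and Itgb5). The 12 that fell were 2 integrins (Itga9 and Itgb8), 4 laminin chains (Lamb2, Lama3, Lamc1 and Lama5) and 6 genes of the adhesion machinery (Rnd3, Vcl, Cdc42ep3, Ezr, Pxn and Actn4). The median difference was -0.10, beside -0.005 over all genes, and 24 of the 34 differences were negative. The wells of the groups did not overlap for 16 of the 34 genes, where 22.5% of all genes had no overlap. Only 5 of the 34 were dim, whereas 6821 of all genes were. Among the 11345 genes that were not dim, refitted alone, 14.7% were higher and 20.1% lower, against 3 and 12 of the 29 adhesion genes in that fit. At an unadjusted limma p under 0.05, 2628 of all 18166 genes were higher and 3262 lower, beside 5 and 15 of the 34 adhesion genes. Counts at that cut-off given below are to be read against this background.

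The number of calls rests on how the spread was estimated. With limma's variance prior taken from every probe set of the array, including those without a gene name, 1032 genes were higher and 1411 lower. Of the adhesion genes, 2 were then higher and 10 lower, the calls of Itga2, Itgb5, Lama5 and Actn4 being lost. With each array centred on its median, 936 genes were higher and 2161 lower, beside 1576 and 2098 as deposited, and the adhesion genes gave 3 higher and 11 lower, without Itgb5 and Actn4. In bulk RNA, fewer cells of a type and less RNA per cell cannot be told apart.

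**Figure D1:**
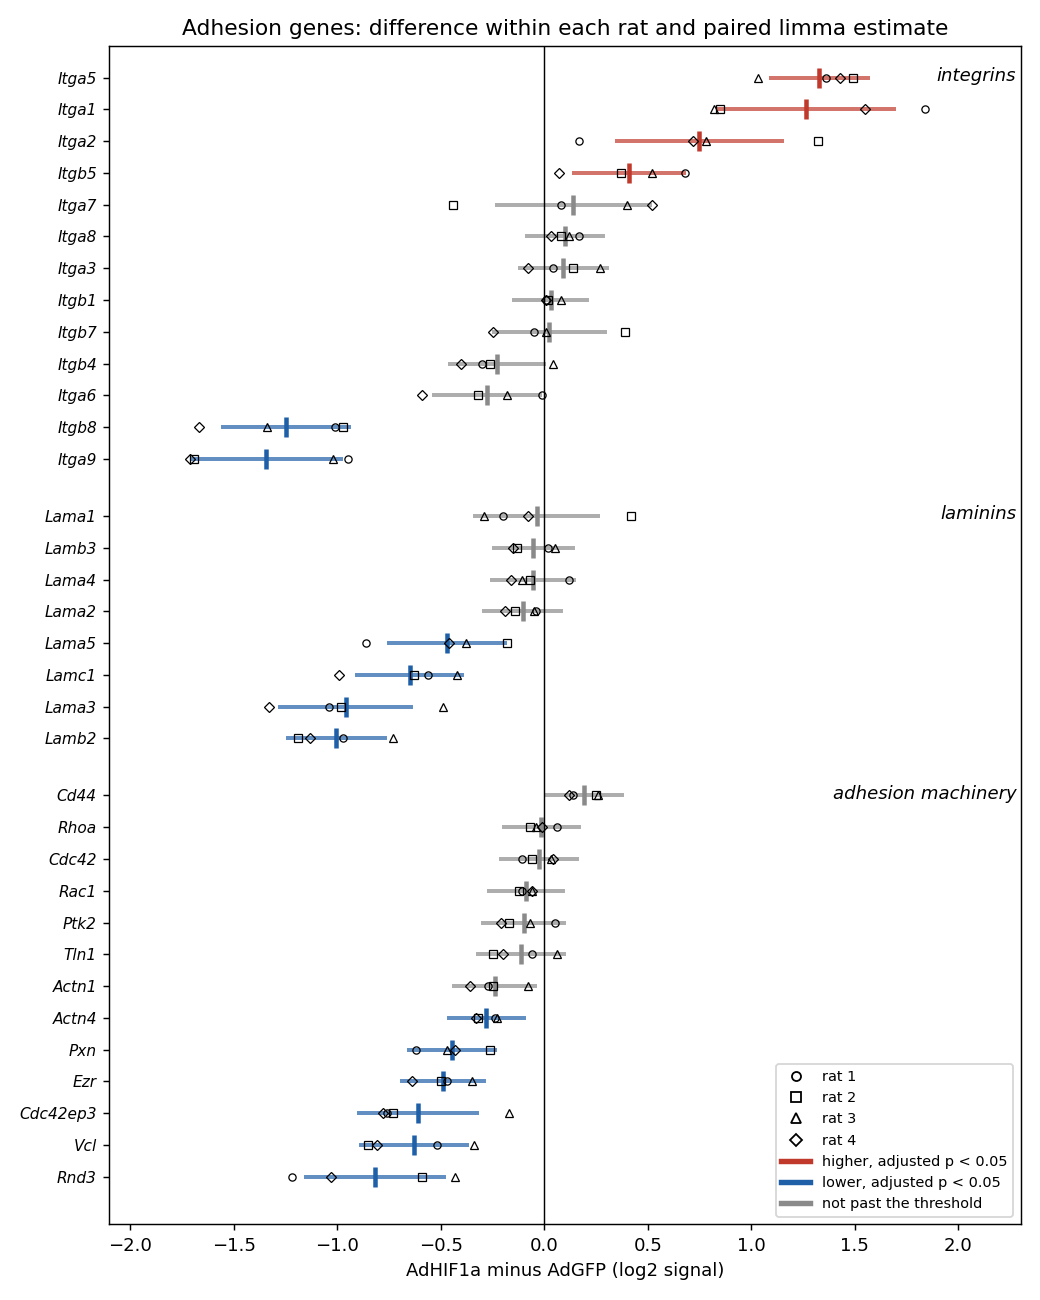
Difference in log2 signal between the AdHIF1a and the AdGFP well (horizontal axis) of each of 34 adhesion genes, sorted within integrins, laminins and adhesion machinery. Open symbols are the 4 rats, vertical ticks the mean and bars the 95% confidence interval of the paired limma fit. Integrins lie on both sides of 0, from 1.33 for Itga5 to -1.34 for Itga9, while all 8 laminin chains have a mean below 0.

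Integrins went in both directions, with 4 of 13 higher, 2 lower and a median difference of 0.09. The shares were 30.8% higher and 15.4% lower, the second close to that of all genes (8.68% and 11.5%). Without rat 2 or without rat 3, 2 integrins were higher, and 929 or 1188 of all genes. Itga5, the alpha chain of the classical fibronectin receptor, gave signals in rats 1 to 4 of 7.70, 7.67, 7.89 and 7.67 with AdGFP, and 9.06, 9.16, 8.92 and 9.10 with AdHIF1a. Every AdHIF1a well lay above every AdGFP well by more than 1 log2 unit. The difference was 1.33 ± 0.10, or 2.51-fold (95% interval 2.13 to 2.95, adjusted p = 0.000278, probe set 17841647). Itgb1, the beta chain that pairs with Itga5 and with most of the alpha chains measured here, lay between 11.25 and 11.37 in the AdGFP wells and between 11.33 and 11.38 in the AdHIF1a wells. Its difference was 0.03, with a 95% interval of -0.15 to 0.21.

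Of 4 measured chains of collagen receptors, Itga1 and Itga2 rose. Itga10 and Itga11, from the list of other integrins, were dim and not called (0.29 ± 0.12 and -0.17 ± 0.10, adjusted p = 0.148 and 0.310). Itga1, which pairs with Itgb1 to bind collagen, gave dim signals of 4.21, 3.92, 4.40 and 4.04 in the AdGFP wells and 6.05, 4.77, 5.22 and 5.59 in the AdHIF1a wells. The groups did not overlap, and the rise within rats ran from 0.82 to 1.84. The mean difference was 1.26 ± 0.18 (adjusted p = 0.00333), and as the AdGFP signal lies low on the scale, where folds are compressed, its 2.40-fold is not an exact size.

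Itga2, also a collagen-binding chain, gave 7.85, 7.93, 9.13 and 8.29 with AdGFP and 8.02, 9.25, 9.91 and 9.01 with AdHIF1a. The groups overlapped, rat 3 being the highest with either virus, and the rise within rats ran from 0.17 in rat 1 to 1.32 in rat 2. The difference of 0.75 ± 0.17 was called in the paired fit (adjusted p = 0.0208). It was not called without the rat as a block (0.229), with the rat as a random block (0.156), or without rat 2, 3 or 4 (0.0519, 0.0783 and 0.0682).

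The beta chains that pair with Itgav to bind RGD motifs, short peptide sequences in fibronectin, vitronectin and latent TGF-beta, did not share a direction. Itgb5, a vitronectin receptor chain, gave 7.51, 7.68, 7.44 and 7.72 with AdGFP and 8.19, 8.05, 7.96 and 7.79 with AdHIF1a. The groups did not overlap, though rat 4 rose by only 0.07. The difference was 0.41 ± 0.11, or 1.33-fold (adjusted p = 0.0417), and it was not called without rat 1, 2 or 3 (0.104, 0.111 and 0.142), after quantile normalization (0.0616) or after median centring (0.168).

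Itgb8, whose dimer with Itgav activates latent TGF-beta, gave 7.37, 6.54, 7.41 and 6.26 with AdGFP and 6.36, 5.57, 6.07 and 4.59 with AdHIF1a. The groups overlapped, rats 1 and 3 being higher than rats 2 and 4 with either virus, while every rat fell, with differences from -1.67 to -0.97. The difference was -1.25 ± 0.13, or 2.37-fold (adjusted p = 0.000926). Itgb6, the epithelial beta chain that also activates latent TGF-beta and was listed among other integrins, fell by 0.65 ± 0.09 from a mean of 12.21 ± 0.03 to 11.55 ± 0.13 (SD, 4 rats; adjusted p = 0.00242).

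Itga9 fell the most of the 34 genes. This chain pairs with Itgb1 and binds tenascin, osteopontin and the extra domain A of fibronectin. The AdGFP wells gave 8.02, 8.74, 8.01 and 8.68, and the AdHIF1a wells gave 7.07, 7.05, 6.99 and 6.97. The AdGFP wells fell into a lower pair (rats 1 and 3) and a higher pair (rats 2 and 4), whereas the AdHIF1a wells lay within 0.10 of each other. The difference was -1.34 ± 0.15, or 2.54-fold (95% interval 1.98 to 3.26, adjusted p = 0.00136).

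None of Itga3, Itga6, Itga7 and Itgb4, chains of laminin receptors, passed the limma test, and at an unadjusted p under 0.05 there were 0 higher and 2 lower. Itga3, which binds the laminins of epithelial basement membranes, differed by 0.09 (95% interval -0.12 to 0.30). Itga6 and Itgb4, which together form the hemidesmosome integrin, differed by -0.27 ± 0.11 and -0.23 ± 0.10 (adjusted p = 0.129 and 0.150). Itga6 was called lower with array weights (-0.33, adjusted p = 0.0451). Itga7, a muscle laminin receptor chain, went from -0.44 in rat 2 to 0.52 in rat 4. The remaining chains were Itga8, a dim receptor chain for nephronectin (0.10 ± 0.08), and Itgb7, a chain of leukocyte integrins (0.03 ± 0.11), and neither was called (adjusted p = 0.434 and 0.910). For Itga8 the groups did not overlap, at 3.70 to 3.84 against 3.87 to 3.96.

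**Figure D2:**
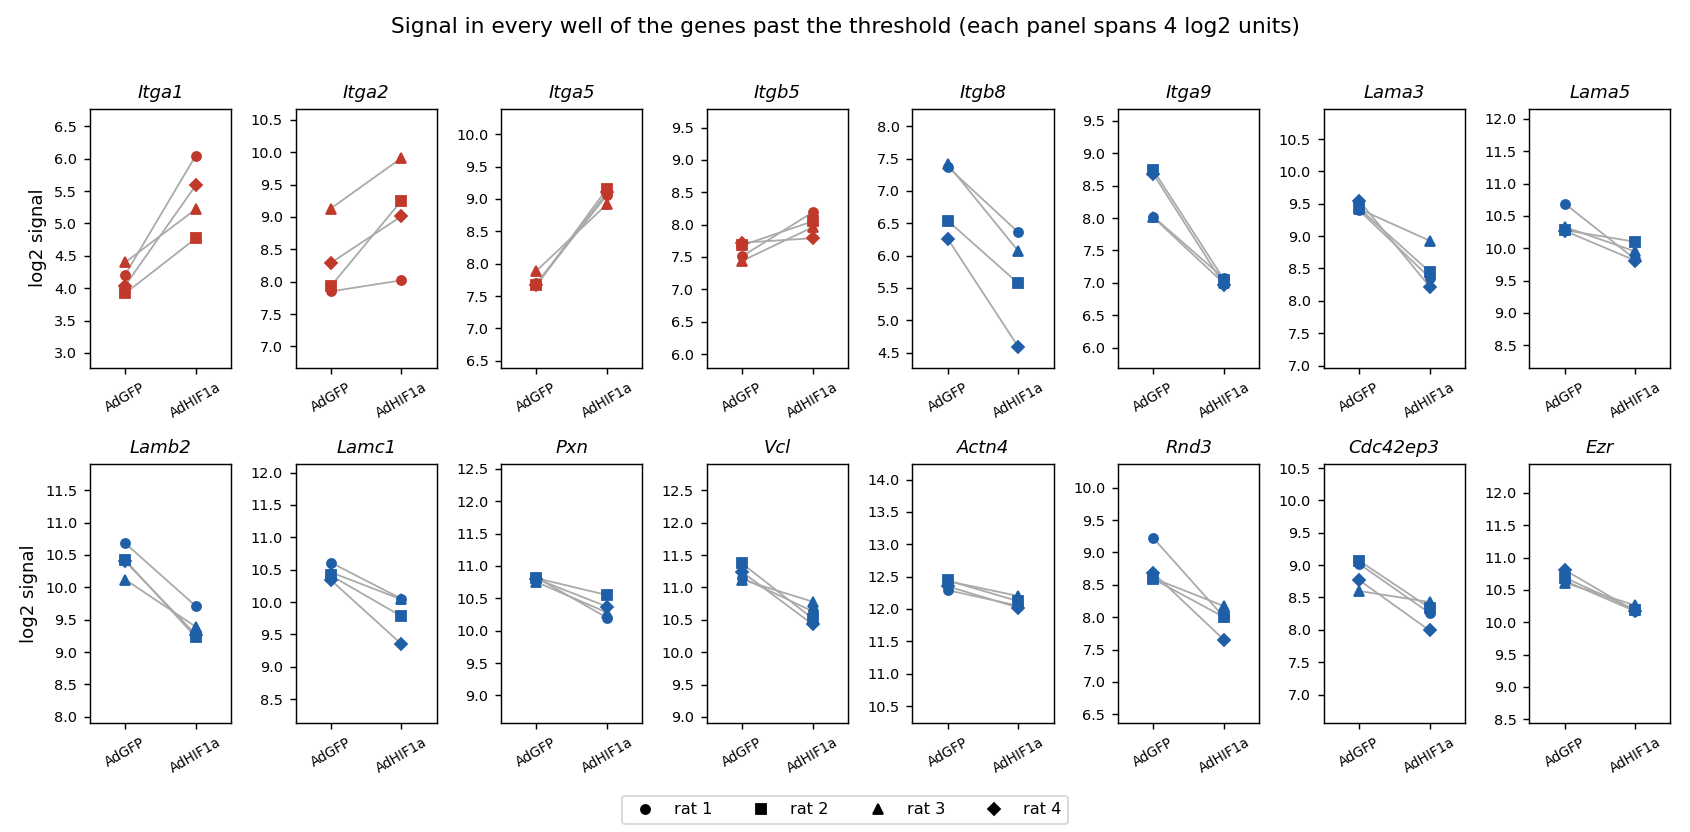
Log2 signal (vertical axis) in the AdGFP and AdHIF1a well of each rat for the 16 adhesion genes past the threshold. Symbols are the 4 rats, lines join the wells of a rat, red marks genes that rose and blue those that fell, and every panel spans 4 log2 units. All lines of a panel slope the same way, and the Itga9 lines meet at 6.97 to 7.07 with AdHIF1a.

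Laminin chains fell or did not pass the test, with 4 of 8 lower, 0 higher and a median difference of -0.29. The share lower was 50%, beside 11.5% of all genes. At an unadjusted p under 0.05 limma gave 4 lower and 0 higher. Lamb2, the beta chain of laminins found in alveolar and vascular basement membranes, gave 10.68, 10.42, 10.12 and 10.40 with AdGFP and 9.71, 9.23, 9.39 and 9.27 with AdHIF1a. The groups did not overlap, and the fall was 2.01-fold (95% interval 1.71 to 2.36, adjusted p = 0.000811). Lamc1, the gamma chain shared by most laminins, gave 10.61, 10.41, 10.46 and 10.34 with AdGFP and 10.05, 9.78, 10.04 and 9.35 with AdHIF1a. It fell in each rat, least in rat 3 (-0.42) and most in rat 4 (-0.99), with a mean of -0.65 ± 0.11 (adjusted p = 0.00618).

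Lama5, the alpha chain that joins Lamb2 and Lamc1 in adult alveolar basement membrane, gave 10.69, 10.28, 10.33 and 10.27 with AdGFP and 9.83, 10.10, 9.95 and 9.81 with AdHIF1a. The groups did not overlap, but rat 2 fell by only 0.18 and rat 1 by 0.86. The difference was -0.47 ± 0.12 (adjusted p = 0.0311), and it was not called without rat 1, 3 or 4 (0.0548, 0.0802 and 0.100).

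Lama3, the alpha chain of the laminin that anchors hemidesmosomes, gave 9.40, 9.43, 9.42 and 9.55 with AdGFP and 8.36, 8.45, 8.93 and 8.22 with AdHIF1a. The groups were well apart, rat 3 having the smallest fall. The difference was -0.96 ± 0.14, or 1.95-fold (adjusted p = 0.00314). Lamb3, the beta chain of the same trimer, lay between 11.22 and 11.40 with AdGFP and between 11.09 and 11.42 with AdHIF1a. Its difference of -0.05 had a 95% interval of -0.24 to 0.14 (adjusted p = 0.718). The difference between the changes of Lama3 and Lamb3 was not tested.

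The other measured alpha chains were Lama1, of early embryonic basement membranes, Lama2, of muscle and nerve, and Lama4, of endothelium and mesenchyme. All 3 were dim, Lama1 and Lama2 at 4.76 or below in every well. Lama4 was dim only just, its mean of 5.0925 lying below the unrounded median of all probe sets. Their differences ran from -0.04 to -0.10, and the smallest adjusted p was 0.417.

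In the adhesion machinery 6 of 13 genes fell (46.2%, beside 11.5% of all genes) and 0 rose, with a median difference of -0.24. At an unadjusted p under 0.05 limma gave 7 lower and 1 higher, beside 3262 and 2628 of all 18166 genes. Without rat 4, 3 of the 13 were lower, and 1196 of all genes. Vcl encodes vinculin, which reinforces the link between talin and actin under load. Its signal was 11.15, 11.37, 11.12 and 11.24 with AdGFP and 10.63, 10.52, 10.78 and 10.43 with AdHIF1a. The groups did not overlap, and the difference was -0.63 ± 0.11, or 1.55-fold (adjusted p = 0.00695).

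Pxn encodes paxillin, the scaffold on which focal adhesion kinase signals. It was nearly constant in the AdGFP wells (10.82, 10.81, 10.75 and 10.80) and gave 10.20, 10.55, 10.28 and 10.37 in the AdHIF1a wells. The difference was -0.44 ± 0.09, or 1.36-fold (adjusted p = 0.0124), and the call was lost without rat 3 (0.0516) or rat 4 (0.0535). Actn4, an actin crosslinker of the alpha-actinin family, gave 12.29, 12.44, 12.43 and 12.35 with AdGFP and 12.05, 12.12, 12.20 and 12.02 with AdHIF1a. Its groups did not overlap, but the difference was only -0.28 ± 0.08, or 1.21-fold (adjusted p = 0.0413). That call was lost without rat 1, 2, 3 or 4 (0.0546, 0.176, 0.0944 and 0.162) and after quantile normalization (0.0702) or median centring (0.063).

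The core of the focal adhesion did not otherwise pass the test. Ptk2, the focal adhesion kinase, differed by -0.10 (95% interval -0.30 to 0.10), and Tln1, the talin that activates integrins, by -0.11 (-0.32 to 0.09). Actn1, the other non-muscle alpha-actinin gene, differed by -0.24 ± 0.08 (adjusted p = 0.0912), was lower in 4 of 4 rats, and was called lower with a trended and robust prior (adjusted p = 0.0125).

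Of the 3 GTPase switches themselves, limma called 0, and 0 had an unadjusted p under 0.05. Rhoa, which drives stress fibres and contraction, differed by -0.01 (95% interval -0.20 to 0.17), Rac1, which drives lamellipodia, by -0.09 (-0.26 to 0.09), and Cdc42, which drives filopodia and polarity, by -0.02 (-0.21 to 0.16). All wells lay at 11.93 or above for these 3 genes. Rnd3, whose product promotes the loss of stress fibres, gave 9.22, 8.59, 8.60 and 8.68 with AdGFP and 8.00, 8.00, 8.17 and 7.65 with AdHIF1a. No AdHIF1a well reached the lowest AdGFP well, and the difference was -0.82 ± 0.14, or 1.76-fold (adjusted p = 0.007).

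Cdc42ep3, an effector of Cdc42 that organises septins and actin, gave 9.02, 9.07, 8.60 and 8.77 with AdGFP and 8.26, 8.34, 8.43 and 7.99 with AdHIF1a. Rats 1, 2 and 4 fell by 0.73 to 0.78 and rat 3 by 0.17. The mean difference was -0.61 ± 0.12 (adjusted p = 0.0121), and the call was lost without rat 2 (0.0506) or rat 4 (0.0584).

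Ezr encodes ezrin, which ties membrane proteins to cortical actin. It gave 10.64, 10.69, 10.61 and 10.81 with AdGFP and 10.17, 10.19, 10.26 and 10.17 with AdHIF1a. Both groups were tight and apart from each other, and the difference was -0.49 ± 0.08 (95% interval 1.22-fold to 1.61-fold lower, adjusted p = 0.00686). Cd44, the hyaluronan receptor whose tail binds ezrin, was 9.97 to 10.15 with AdGFP and 10.20 to 10.33 with AdHIF1a. The groups did not overlap and 4 of 4 rats were higher, but the difference of 0.19 ± 0.08 did not pass the threshold (adjusted p = 0.138).

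Promoters are shown because the factor expressed is a DNA-binding one whose core site reads ACGTG or GCGTG. The windows are RefSeq's for GRCr8, from 250 bases before the start site to 50 after it, and 27 of the 34 measured genes had an entry. The first entry of each gene was used. For Rhoa, which held a match, and Itgb7, which did not, the start site of the window falls on an ATG. Those windows may therefore lie at the start of the coding sequence and not at the promoter. Both motifs were searched on both strands. ACGTG overlaps itself on the opposite strand in the palindrome CACGTG, which then counts on each strand. At least 1 match was found in 14 of the 27 windows (51.9%), and in 50.8% of 14564 windows of measured genes. By outcome, 1 of 4 genes that rose, 8 of 10 that fell and 5 of 13 that were not called held a match. The median GC content was 58.7%, 68.8% and 59.3% in these groups and 57.3% over all windows. Matched letters describe the windows, not binding, and a window without them says nothing of sites elsewhere. The 3 integrin alpha chain genes that rose, and the gamma chain and paxillin genes that fell, are printed 5′ to 3′ on the gene's strand, with matches on either strand in capitals.
Itga5, chr7:136381256-136381555, minus strand: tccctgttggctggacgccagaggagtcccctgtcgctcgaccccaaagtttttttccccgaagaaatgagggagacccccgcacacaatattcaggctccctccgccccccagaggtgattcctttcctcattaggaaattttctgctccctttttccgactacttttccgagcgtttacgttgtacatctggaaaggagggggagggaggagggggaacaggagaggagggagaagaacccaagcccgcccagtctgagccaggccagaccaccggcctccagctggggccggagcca
Itga1, chr2:48545234-48545533, minus strand: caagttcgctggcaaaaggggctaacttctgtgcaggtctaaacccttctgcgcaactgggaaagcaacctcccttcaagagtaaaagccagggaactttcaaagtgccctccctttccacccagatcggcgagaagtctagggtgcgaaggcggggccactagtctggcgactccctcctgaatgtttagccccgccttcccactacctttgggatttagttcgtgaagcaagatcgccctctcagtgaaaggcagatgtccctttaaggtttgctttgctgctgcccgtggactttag
Itga2, chr2:48354460-48354759, minus strand: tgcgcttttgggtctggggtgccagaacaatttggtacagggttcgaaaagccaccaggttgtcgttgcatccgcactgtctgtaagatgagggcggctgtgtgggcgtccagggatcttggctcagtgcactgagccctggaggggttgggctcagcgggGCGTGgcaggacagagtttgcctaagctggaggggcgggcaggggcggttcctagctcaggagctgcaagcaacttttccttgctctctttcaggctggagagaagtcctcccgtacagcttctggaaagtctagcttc
Lamc1, chr13:68051937-68052236, minus strand: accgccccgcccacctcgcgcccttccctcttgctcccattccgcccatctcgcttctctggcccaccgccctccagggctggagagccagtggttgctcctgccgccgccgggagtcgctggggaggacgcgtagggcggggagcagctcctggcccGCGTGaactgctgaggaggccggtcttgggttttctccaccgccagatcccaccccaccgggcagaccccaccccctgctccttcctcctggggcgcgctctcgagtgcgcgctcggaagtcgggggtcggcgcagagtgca
Pxn, chr12:46768648-46768947, minus strand: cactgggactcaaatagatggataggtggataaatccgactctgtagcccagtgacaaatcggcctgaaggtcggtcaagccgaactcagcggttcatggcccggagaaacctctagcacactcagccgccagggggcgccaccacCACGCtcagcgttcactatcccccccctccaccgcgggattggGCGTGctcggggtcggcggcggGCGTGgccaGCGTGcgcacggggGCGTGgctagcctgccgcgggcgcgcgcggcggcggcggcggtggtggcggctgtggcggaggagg
Itga5 and Itga1 held 0 matches, Itga2 and Lamc1 held 1 GCGTG each, and Pxn held 5 of GCGTG, the most of the 27 windows. The printed windows are examples and do not stand for their groups. Among windows not printed, Itgb5, which rose, held 0 matches. Itga9 and Cdc42ep3, which fell, also held 0, while 8 of the 10 windows of genes that fell held a match.

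Of 11 other integrin subunits, 2 were higher and 2 lower at an unadjusted p under 0.05 in limma. After adjustment 0 were called higher and 2 lower, or 18.2% called, beside 20.2% of all genes. Besides Itgb6, the lower gene was Itgal, the alpha chain of a leukocyte integrin, which fell by 0.72 ± 0.15 (adjusted p = 0.0136, and 0.0516 and 0.0572 without rat 1 or 4). Among 9 measured macrophage and leukocyte markers 2 were lower, Mrc1 and Csf1r (-0.82 ± 0.19 and -0.46 ± 0.11), though not with the variance prior from every probe set (0.0586 and 0.059), and the list's mean signal was 7.14 to 7.67 with AdGFP and 6.63 to 7.52 with AdHIF1a. The 2 called make up 22.2% of these markers, again close to the share of all genes. The part of macrophages and leukocytes in the result for Itgal was not tested.

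Of 15 other laminin-associated and basement membrane genes, 8 were lower and 2 higher, with a median of -0.54. That is 66.7% called, beside 20.2% of all genes (11.5% lower and 8.68% higher). The 3 largest falls were those of Ntn4, a laminin-related netrin (-1.58 ± 0.14), Fn1, which encodes fibronectin, a ligand of Itga5 (-1.52 ± 0.19), and Col4a1, a chain of basement membrane collagen (-1.23 ± 0.19), for which the adjusted p did not exceed 0.00477. Col4a2, Col4a5, Col18a1, and the laminin receptors Dag1 (-0.63 ± 0.09) and Bcam (-0.87 ± 0.14) were also lower. The higher genes were the laminin-binding nidogens Nid2 (0.90 ± 0.12, adjusted p = 0.00301) and Nid1 (0.37 ± 0.10, adjusted p = 0.0351), and Nid1 was dim and not called without rat 1, 2, 3 or 4 (0.0814, 0.0697, 0.0564 and 0.141).

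Of 43 other focal adhesion genes, 13 were lower and 6 higher, with a median of -0.21. That is 44.2% called, beside 20.2% of all genes (11.5% lower and 8.68% higher). With the variance prior from every probe set 6 were lower and 2 higher, beside 7.77% and 5.68% of all genes. Median centring gave 14 and 1, beside 11.9% and 5.15% of all genes. Leaving out each rat in turn gave 5 to 13 and 1 to 4, beside 1196 to 2284 and 921 to 1519 of all 18166 genes. The 3 largest falls were those of Evl, an actin polymerisation factor of the Ena/VASP family (-1.12 ± 0.10), Tgfb1i1, a relative of paxillin (-1.02 ± 0.13), and the tensin gene Tns3 (-0.70 ± 0.08), all called whichever rat was left out. The largest rises were Hic1 (0.82 ± 0.09), Tln2, a second talin (0.65 ± 0.18), and the adaptor Crkl (0.44 ± 0.08). Hic1 is a transcriptional repressor and no focal adhesion protein, and was listed in error. The call of Tln2 was lost without rat 1 or 3 (0.110 and 0.150) or without rat 2 (0.051), and that of Crkl without rat 2 (0.0543). With median centring neither was called (0.0676 for Tln2 and 0.0506 for Crkl), and Hic1 was the 1 gene of the list still higher.

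Of 7 hemidesmosome and tetraspanin genes 3 were lower and 0 higher in limma, or 42.9% called, beside 20.2% of all genes. At an unadjusted p under 0.05 there were 4 lower and 0 higher. The 3 called were the tetraspanins Cd9 (-0.87 ± 0.08), Cd81 (-0.43 ± 0.08) and Cd151, the partner of laminin-binding integrins (-0.46 ± 0.09, and not called without rat 2 or 4, at 0.0715 and 0.0692).

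Among 6 genes of the cortex and of hyaluronan, 1 was higher and 2 lower, or 50% called, beside 20.2% of all genes. Has2, a hyaluronan synthase, rose by 1.02 ± 0.16. Msn, a relative of ezrin, fell by 0.57 ± 0.09. Pdpn, a membrane glycoprotein bound by ezrin and moesin and also a type I cell marker, fell by 1.44 ± 0.16. Rdx, Nherf1 and Hmmr were not called (adjusted p = 0.312, 0.575 and 0.079).

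**Figure D3:**
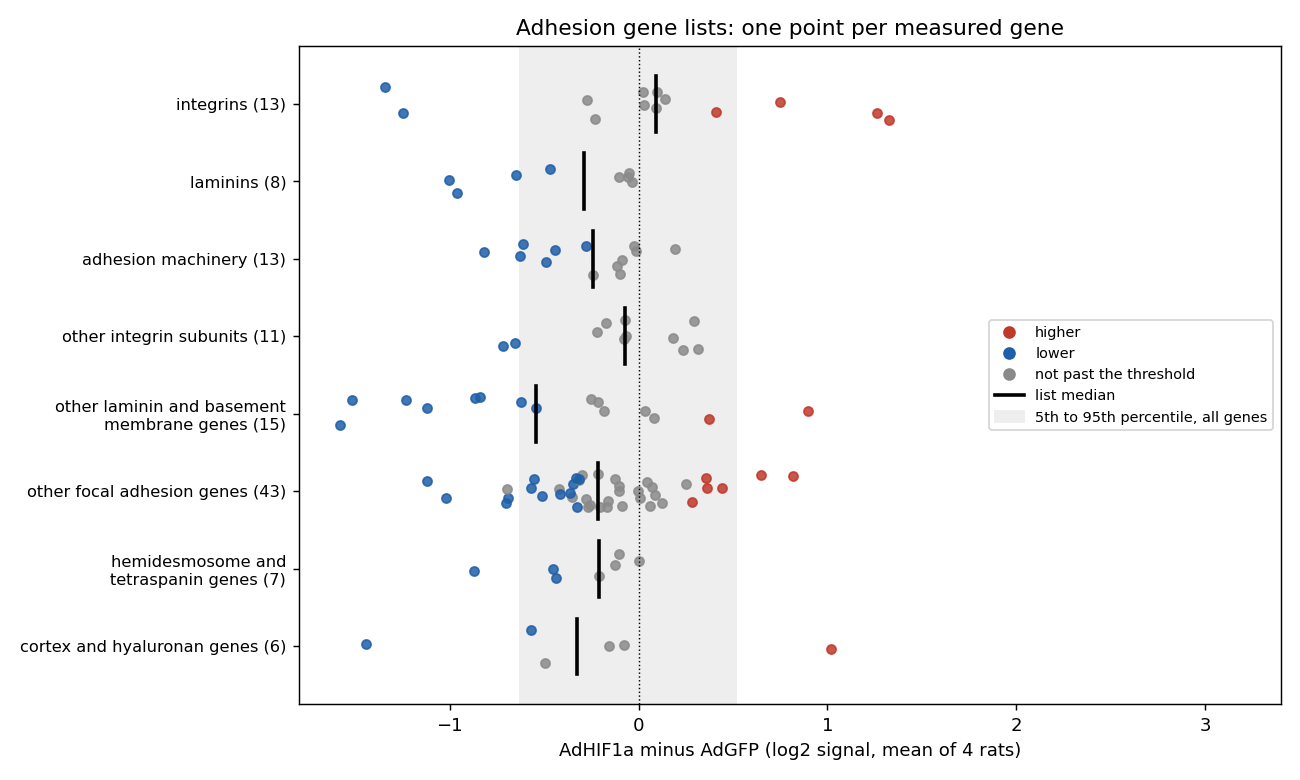
Difference in log2 signal (horizontal axis, mean of 4 rats) of every measured gene in the groups of adhesion genes and in the lists of related genes, with the number of genes in brackets. Points are genes, red higher, blue lower and grey not past the threshold, black ticks are list medians, the grey band spans the 5th to 95th percentile of all genes (-0.63 to 0.52), and vertical scatter within a row has no meaning. The list of laminin-associated and basement membrane genes has the lowest median, -0.54.

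Markers of other cells that the wells could hold were measured beside these genes. Over all genes, 8.68% were called higher and 11.5% lower, or 20.2% in either direction. Type I alveolar cells, the flat cells that ATII cells can become, had 7 of 9 markers lower and 1 higher, and their mean signal was 8.60 to 9.20 with AdGFP and 7.70 to 8.39 with AdHIF1a. Smooth muscle and myofibroblast markers were lower for 1 of 5, or 20% called, which is close to the share over all genes. The lower gene was the actin-binding protein gene Tagln (-2.35 ± 0.21). Smooth muscle and myofibroblast markers had a mean signal of 5.72 to 6.19 with AdGFP and 5.29 to 5.40 with AdHIF1a. The part of these cells in the falls of laminin and adhesion machinery genes was not tested. Of 10 fibroblast and mesenchymal markers, 6 endothelial markers and 4 basal and airway markers, 0 were called by limma, and at an unadjusted p under 0.05 there were 0, 1 and 0 respectively. Fibroblast markers had a mean signal of 5.24 to 5.37 and 5.16 to 5.36 in the groups and 6 of 10 were dim, and endothelial markers 4.32 to 4.52 and 4.38 to 4.50, with 5 of 6 dim. Basal and airway markers, Scgb1a1 included, had a mean signal of 5.94 to 6.27 with AdGFP and 6.20 to 6.33 with AdHIF1a, and 2 of 4 were dim.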

How the data were processed

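The authors deposited log2 signals for 36685 probe sets on 8 arrays, made with Affymetrix Expression Console per the submitters' processing notes. The labels state neither algorithm, version nor genome build. Values ran from 1.42 to 13.57, as log2 signals do, and their array medians were 5.00 to 5.20 and upper quartiles 7.62 to 7.68, so a shift of all transcripts could have been removed by scaling. Precision is limited by the number of arrays.

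In the platform annotation, 18511 probe sets carried 1 symbol, 575 several and 17599 none, and only the first kind was used. Among probe sets of 1 gene, that of highest mean signal was taken. Of the 34 measured adhesion genes, all matched the RefSeq annotation under the same symbol, and only Lama4 had a second probe set, which was also not called. The members and gene lists were chosen with earlier results of these data known.

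AdHIF1a and AdGFP were compared by limma 3.58.1 under R 4.3.3, using lmFit and eBayes (two-sided), with rats as fixed blocks, unfiltered and without further scaling; intervals are 95% confidence intervals. Pairing follows the design text, by which every rat had its own extraction day and a well of each virus, so rat and day cannot be told apart. Across genes, deviations from the group mean had correlations of 0.18 to 0.26 within a rat and -0.22 to 0.08 between rats. The deviations of a gene cancel out within a group, so the values between rats are not independent of those within a rat. No pair of arrays shared more than 1.95% of its values to 2 decimals. A list of related genes is not reported here. Adhesion genes past the threshold are given in full, the others by range or interval, and in each further list the called genes with the 3 largest differences in each direction are named; where 5 or fewer were called, the rest were chosen for naming after seeing their values. Alternatives included the block, quantile normalization, median centring, filters on dim genes, array weights, the variance prior, averaged probe sets, stricter thresholds and leaving out each rat. The variance prior from every probe set was added after seeing the data.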

Additional observations from a re-analysis of the deposited data

Results flagged for a closer look

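In 8 of 102 groups of 4 values (the AdGFP wells, the AdHIF1a wells and the differences within rats of 34 genes), a value stood far from the other 3, where chance gives about 1 in 20. With AdGFP, rat 1 stood apart for Lama5 (10.69, others 10.27 to 10.33), Rnd3 (9.22, others 8.59 to 8.68), Ptk2 (9.97, others 10.06 to 10.07) and Itga8 (3.70, others 3.83 to 3.84), and rat 3 for Itga5 (7.89, others 7.67 to 7.70). With AdHIF1a, rat 3 stood apart for Itga3 (11.22, others 11.02 to 11.05). The difference within rat 3 stood apart for Cdc42ep3 (-0.17, others -0.78 to -0.73) and for Itgb1 (0.08, others 0.01 to 0.02). For Itga8, Itgb1 and Ptk2 the gaps are within 0.13 log2 units.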

How the results depend on the processing

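Of the 16 called adhesion genes, 10 kept their call and direction under every alternative fit they entered (Itga1, Itga5, Itga9, Itgb8, Lama3, Lamb2, Lamc1, Vcl, Rnd3 and Ezr), and 2 of the 18 others gained a call under 1 alternative each (Itga6 and Actn1). None of the 16 changed direction. Without the replicate block, 3 adhesion genes were higher and 12 lower, and 1497 and 1955 of all genes. Dropping the block ended the call of Itga2 and of no other adhesion gene. Adjusted p under 0.01 left 2 adhesion genes higher and 8 lower, and 794 and 1084 of all genes; a minimum of 1.5-fold left 3 and 8, and 714 and 1008. Median centring gave 936 higher genes over all, and the prior from every probe set 1032, with 2 adhesion genes higher. Leaving out each rat gave 2 to 3 adhesion genes higher and 8 to 10 lower, and 921 to 1519 and 1196 to 2284 of all genes; the counts over all genes were lowest without rat 4. Signals near the floor limit the folds of Itga1, Itga8, Lama1, Lama2 and Nid1.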

Other observations

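The genes next to the adhesion genes in the RefSeq annotation of GRCr8 were looked up after the adhesion genes' values were seen, and the neighbours named here were picked for their values. Protein-coding genes were ordered by start coordinate, which does not show whether neighbours overlap. Itga1 and Itga2, which both rose, are adjacent protein-coding genes. Pelo, a ribosome rescue factor and the next gene after Itga1 in this order, rose by 0.74 ± 0.11 (limma adjusted p = 0.00328). Mocs2, a molybdenum cofactor gene that comes just before Itga2, differed by -0.10 ± 0.11 (adjusted p = 0.612). Fst, the activin antagonist follistatin, comes before Mocs2 and rose by 0.81 ± 0.09 (adjusted p = 0.0014).

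Large changes also lay beside adhesion genes that did not pass the test. Pdk1, a kinase that restrains pyruvate dehydrogenase and a known HIF target, rose by 1.98 ± 0.09 (adjusted p = 4.02e-05) next to Itga6, which differed by -0.27. Car9, a carbonic anhydrase and a known HIF target, rose by 3.21 ± 0.19 (adjusted p = 0.000109) with Tpm2, a tropomyosin gene (-0.46 ± 0.08), between it and Tln1, which differed by -0.11. Beside genes that fell, the urokinase gene Plau (-1.23 ± 0.12, adjusted p = 0.000689) lies next to Vcl, and Vill, a villin-like gene (-1.83 ± 0.09, adjusted p = 5.12e-05), is the second gene from Itga9, after Ctdspl (-0.68 ± 0.10). Whether neighbours change together more often than other genes was not tested.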
